A study of Mus musculus with 16 samples.

Results

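The genes of the cytosolic ribosome were examined in 4 subpopulations of cMyc+ germinal center (GC) light zone B cells from mouse spleen. Members were all rows whose symbol is Rpl or Rps followed by a number, with or without a closing a, x, y or l, together with the stalk genes Rplp0, Rplp1 and Rplp2 and the laminin-receptor gene Rpsa. This rule used names and no measured value, and found 89 genes among 51912 rows of the expression table. Of these, 77 encode the canonical proteins (46 of the large and 31 of the small subunit), 7 are protein-coding paralogs of a canonical gene, and 5 are annotated as pseudogenes (Rps4l, Rps12l1, Rpl6l, Rps3a2 and Rps3a3). Symbols of mitochondrial ribosomal proteins (Mrpl, Mrps) and of the many further pseudogenes with a -ps suffix lie outside the rule.

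All 16 libraries came from cMyc gfp/gfp mice, in which a GFP-cMyc fusion protein is made from the endogenous Myc locus, 7 days after intraperitoneal immunization with sheep red blood cells. Mice were male and female, 6 to 15 weeks of age, and the same reporter allele and immunization were shared by all groups. B220+ CD38low CD95+ cMycGFP+ cells were sorted as cMyc+prePB (CD69hi), cMyc+early (CD23hi CD21/35hi), cMyc+lateCD23int or cMyc+lateCD23lo (intermediate or low for these receptors), with 4 libraries per subpopulation. In the paper's gating, CXCR4hi CD86lo cells of the dark zone were removed before the early and late groups were drawn. The cMyc+prePB gate did not use these zone markers, and the paper found its cells to be mostly, not all, light zone. The part of dark zone cells in the cMyc+prePB values was not tested. The labels do not say whether libraries came from separate or pooled mice, so p-values measure the spread between these libraries, which may in part be technical. GFP marks cells by cMyc protein, so all 4 groups were selected as positive for it and no cMyc-negative group was compared here.

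A ribosome is built of a small subunit, which reads the mRNA, and a large subunit, which joins amino acids. Most of their proteins are needed in equal amounts, and cMyc and mTORC1 are known to raise ribosome production in activated B cells. Most ribosomal protein mRNAs begin with a 5′ terminal oligopyrimidine (TOP) stretch, an uninterrupted run of C and T bases through which their translation responds to mTORC1.

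The TOP stretch is the feature these genes are best known to share, so the sequence around the annotated start is shown for genes that the results below turn on. Each line runs 5′ to 3′ on the coding strand, from 30 bases before to 20 bases from the start on, and capitals mark a pyrimidine run of at least 7 C or T bases that overlaps the 10 bases on either side of the start. The sequences are from RefSeq (GRCm38.p6). Rpl38, Rpl35 and Rpl7a are shown as genes with large differences between libraries or subpopulations, Rpl22l1, Rps27 and Rpl7l1 for the comparison of paralogs, Rplp0, Rplp2 and Rpsa for the stalk and the mRNA exit, and Rps6 as the substrate of S6 kinase.
Rpl38 (chr11:114668550-114668599, + strand): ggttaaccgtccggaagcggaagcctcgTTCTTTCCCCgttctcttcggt
Rpl35 (chr2:39005112-39005161, − strand): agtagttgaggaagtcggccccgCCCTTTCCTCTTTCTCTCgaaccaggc
Rpl7a (chr2:26910777-26910826, + strand): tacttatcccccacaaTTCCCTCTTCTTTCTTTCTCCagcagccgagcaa
Rpl22l1 (chr3:28805478-28805527, + strand): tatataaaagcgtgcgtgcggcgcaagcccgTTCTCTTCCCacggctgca
Rps27 (chr3:90213629-90213678, − strand): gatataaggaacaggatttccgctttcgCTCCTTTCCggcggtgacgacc
Rps6 (chr4:86857348-86857397, − strand): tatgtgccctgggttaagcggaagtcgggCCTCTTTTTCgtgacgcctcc
Rplp2 (chr7:141447621-141447670, + strand): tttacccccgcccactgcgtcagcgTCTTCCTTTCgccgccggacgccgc
Rplp0 (chr5:115559437-115559486, + strand): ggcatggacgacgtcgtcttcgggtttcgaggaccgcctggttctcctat
Rpsa (chr9:120127736-120127785, + strand): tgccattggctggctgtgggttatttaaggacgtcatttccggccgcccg
Rpl7l1 (chr17:46782637-46782686, − strand): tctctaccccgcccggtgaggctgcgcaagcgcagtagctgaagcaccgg

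The runs in Rpl35 and Rpl7a were the longest of those shown, at 18 and 21 bases, whereas Rplp0, Rpsa and Rpl7l1 had none in this window. The Rplp0 line holds a pyrimidine run of 7 bases just past the window, which was not counted. How exact the annotated starts are was not tested, so a gene without a counted run may still have a TOP stretch. Promoter entries were found for 64 of the 89 genes, with 76 starts in all. A pyrimidine run, searched on the coding strand only, was present at 35 of the 76 starts (46.1%), compared with 19.7% of all 32851 RefSeq starts. The letters CCGGAAG, a core read by ETS factors such as GABP, occurred on either strand of the 300-base window (250 before to 50 after the start) in 27 of the 76 promoters (35.5%) and in 8.86% of all promoters. The E-box CACGTG, bound by MYC-MAX and other factors, was found in 8 (10.5%, against 7.15% of all), and TATAAA in 7 (9.21%, against 13.6%). Read on the other strand, CCGGAAG begins with pyrimidines, so a match can overlap a run. A match describes letters, not a site in use.

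Between 19812080 and 25795815 reads per library were recovered from the normalized counts, and 14650 to 15573 genes had a read. The 5 B cell markers summed to 80224 or more in every library, while Cd3d, Cd3e, Cd3g, Cd4 and Cd8a did not exceed 73.9 and S100a9 and Ncr1 were at 0. Markers of other cell types were not all absent. The T cell marker Lck reached 6839 (cMyc+prePB) and the erythroid marker Hba-a2 1944 (cMyc+lateCD23int). Of myeloid and NK cell markers, Lyz2 reached 968 (cMyc+lateCD23lo), Itgam 108 (cMyc+prePB) and Klrb1c 62.2 (cMyc+lateCD23lo). The source of these transcripts was not tested. Over all genes tested (12505), limma called 51 by the test over the 4 subpopulations. The 4 libraries numbered 1 had the highest mitochondrial transcript share of their group (1.83 to 2.95%, against 1.34 to 1.90% in the libraries numbered 2 to 4) and the highest or second highest Malat1 count.

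Ribosomal protein mRNAs were among the most abundant transcripts of these cells and covered a wide range. Per kb of transcript, the highest mean level over the 16 libraries was that of Rps27 (67768 normalized counts per kb ± 23146, SD, n = 16). Also among the 8 highest were Rps14 (50336 ± 10673), Rps19, Rps18, Rpl32, Rpl41 and Rpl4 (46961, 45811, 44523, 43928 and 40875). Of these, Rps27 is a zinc-finger protein of the small subunit and Rps19 is the protein most often mutated in Diamond-Blackfan anaemia. Rpl4 is a large-subunit protein that lines the peptide exit tunnel. Neighbours in this order mostly lay within their spread: Rps14 exceeded Rps19 in 10 of 16 libraries, Rps19 exceeded Rps18 in 10, and Rpl32 exceeded Rpl41 in 6, whereas Rpl41 exceeded Rpl4 in 14. The canonical median was 14740 per kb, 63 of the 77 canonical genes lay within 10-fold of the highest, and the whole canonical range was 175-fold, down to Rpl5 (388 per kb). Lengths are those of 1 annotated transcript per gene (2045 bases for Rpl5, where the median of the members is 751), and the isoform in use is unknown. For a median 55.5% of a member's 50-base stretches the same letters occur in the transcript of another gene, and for Rps27 this was 98.6%. The order and the range are therefore approximate.

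**Figure D1:**
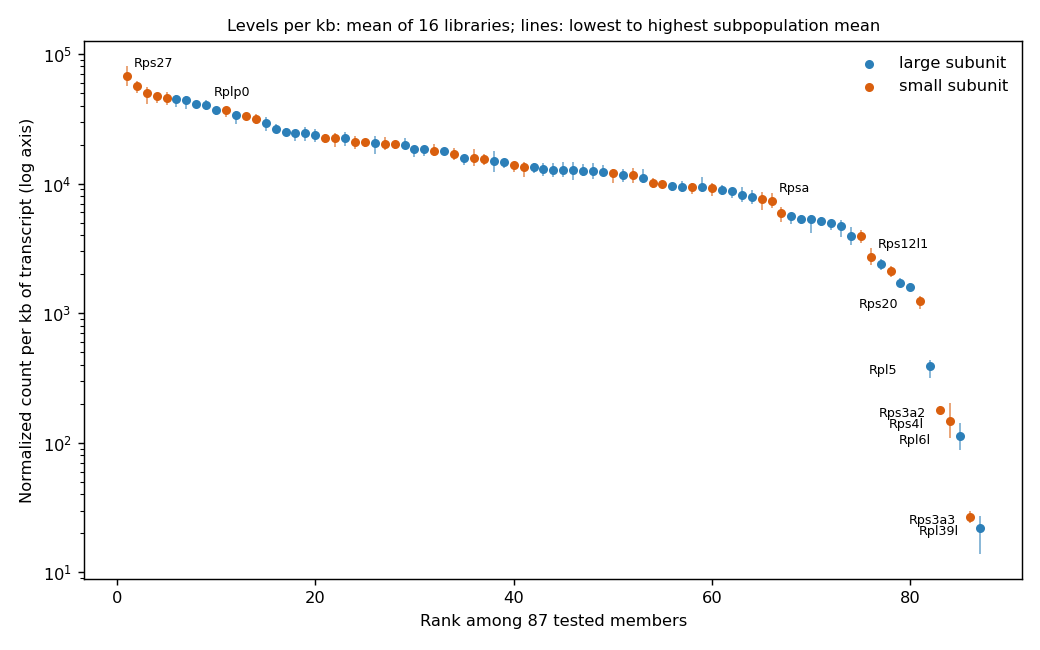
Normalized count per kb of transcript (log axis) of the 87 tested ribosomal protein genes against their rank, with points for the mean of the 16 libraries, colored by subunit, and lines from the lowest to the highest subpopulation mean. The lines are short beside the range from Rps27 (67768 per kb) down to Rpl39l (22.1 per kb), and the 5 lowest genes are a paralog and annotated pseudogenes.

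The order was nearly the same in every subpopulation. Of the 8 highest genes, 6 were among the 8 highest in all 4 subpopulations, and a member's rank differed by a median of 3 places between subpopulations. The largest shift was 11 places, for Rpl7a, a large-subunit protein next to the L1 stalk. At the low end were the pseudogenes Rps3a2 (180 per kb), Rps4l (147), Rpl6l (112) and Rps3a3 (26.7) and the paralog Rpl39l (22.1), known from testis. Rpl39l had 3 or fewer reads in 6 of the 16 libraries. Rpl3l, the striated muscle paralog of Rpl3 (chr17:24727820-24736143), and Rpl10l, the testis paralog of Rpl10 (chr12:66283379-66284401), had 0 reads in all 16 libraries, below a floor of 3 reads per library, or 2.48 to 3.23 normalized counts. These 2 genes were not tested, which left 87.

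Summed over all 89 members, ribosomal protein genes held the largest share of normalized counts in cMyc+prePB cells and the smallest in cMyc+early cells. The share was 5.18, 5.16, 5.22 and 6.12% in the 4 cMyc+prePB libraries and 4.38, 4.57, 4.90 and 3.97% in the cMyc+early libraries. In cMyc+lateCD23int it was 5.24, 4.60, 4.11 and 5.70%, and in cMyc+lateCD23lo 4.43, 5.15, 4.81 and 5.30%. The means were 5.42% ± 0.465, 4.46% ± 0.391, 4.91% ± 0.701 and 4.92% ± 0.388 (SD, n = 4). The cMyc+prePB and cMyc+early libraries did not overlap, while both late subpopulations overlapped with each other and with the other groups. Large- and small-subunit genes had like proportions in the means of the subpopulations. The mean ratio of summed Rpl to summed Rps counts was 1.37, 1.38, 1.34 and 1.33 in the 4 subpopulations. Single libraries ran from 1.27 (cMyc+lateCD23lo 1) to 1.45 (cMyc+early 4). In these bulk libraries a change in cell composition and a change in RNA per cell cannot be told apart, and a share can also move with the rest of the transcriptome.

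**Figure D2:**
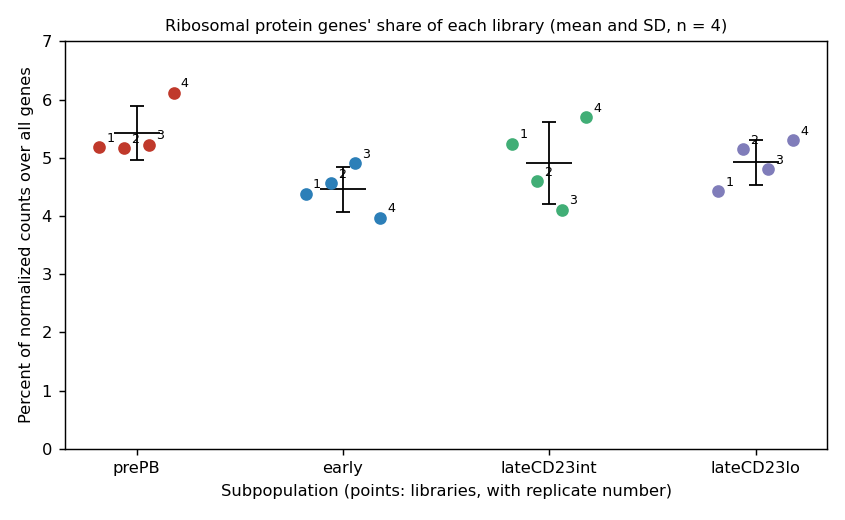
Share of normalized counts (percent) held by the 89 ribosomal protein genes in each library, with 1 numbered point per library and bars for the mean and SD of the 4 libraries of each subpopulation. All 4 cMyc+prePB libraries (5.16 to 6.12%) lie above all 4 cMyc+early libraries (3.97 to 4.90%), and the late subpopulations span both.

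The members moved together from library to library. Over the 81 members averaging at least 1000 normalized counts, the median correlation between a pair of genes over the 16 libraries was 0.76 and 97.3% of pairs were positive. These points share libraries, depth and, in part, reads, so the correlations are descriptive. The first principal component held 72.4% of the variance of the log2 values and the second 13.6%. At the low end of the first were cMyc+early 4, cMyc+lateCD23int 3 and cMyc+early 2, and at the high end cMyc+lateCD23int 1 and cMyc+prePB 4, so this axis ran within subpopulations as well as between them. In cMyc+prePB 4, 84 of the 87 tested members lay above their own mean, with a median deviation of 0.28 on the log2 scale, and in cMyc+lateCD23lo 4 the number was also 84 (0.20). In cMyc+lateCD23int 3 only 3 did (−0.41), and in cMyc+early 4 it was 6 (−0.42). A median 27.0% of a member's variance lay between subpopulations, compared with 21.3% for all genes tested. This share is not adjusted for the number of groups, so much of it can arise without a difference between subpopulations.

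Genes differed in how closely they followed the rest. Rpl38, a large-subunit protein known for its part in axial patterning, had the largest weight on the first component and a correlation of 0.974 with the median of the members. Rpl35, Rps27l, Rps14, Rpl26 and Rps21 came next in weight. At the other end, Rpl7l1 (0.0857), Rpl28 (0.124) and Rpl3 (0.216) scarcely followed the median. Rps27 stood apart on the second component, where Rpl3 and Rps2 lay opposite to it. Its counts were 26733, 16815, 16876 and 20561 in cMyc+prePB, 26200, 17400, 22591 and 11690 in cMyc+early, 45182, 23274, 17813 and 25485 in cMyc+lateCD23int, and 35795, 20951, 23137 and 23575 in cMyc+lateCD23lo. The highest Rps27 value of every subpopulation was thus in its library 1. Rpl38, Rpl35, Rpl26, Rps21, Rpl28 and Rps2 were named after their values were seen.

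Non-member genes with transcripts under 700 bases deviated in many of the same libraries. Their median deviation was −0.38 in cMyc+early 4, −0.27 in cMyc+lateCD23int 3 and 0.35 in cMyc+lateCD23int 1, where the members' medians were −0.42, −0.41 and 0.27. In cMyc+prePB 4 they differed, at −0.02 for short non-members and 0.28 for members. The part of transcript length in the members' variation was not tested. Within subpopulations the median SD of a member was 0.237 on the log2 scale, against 0.615 for all genes tested, and for genes with a mean of at least 1000 it was 0.232 for members and 0.300 for all.

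**Figure D3:**
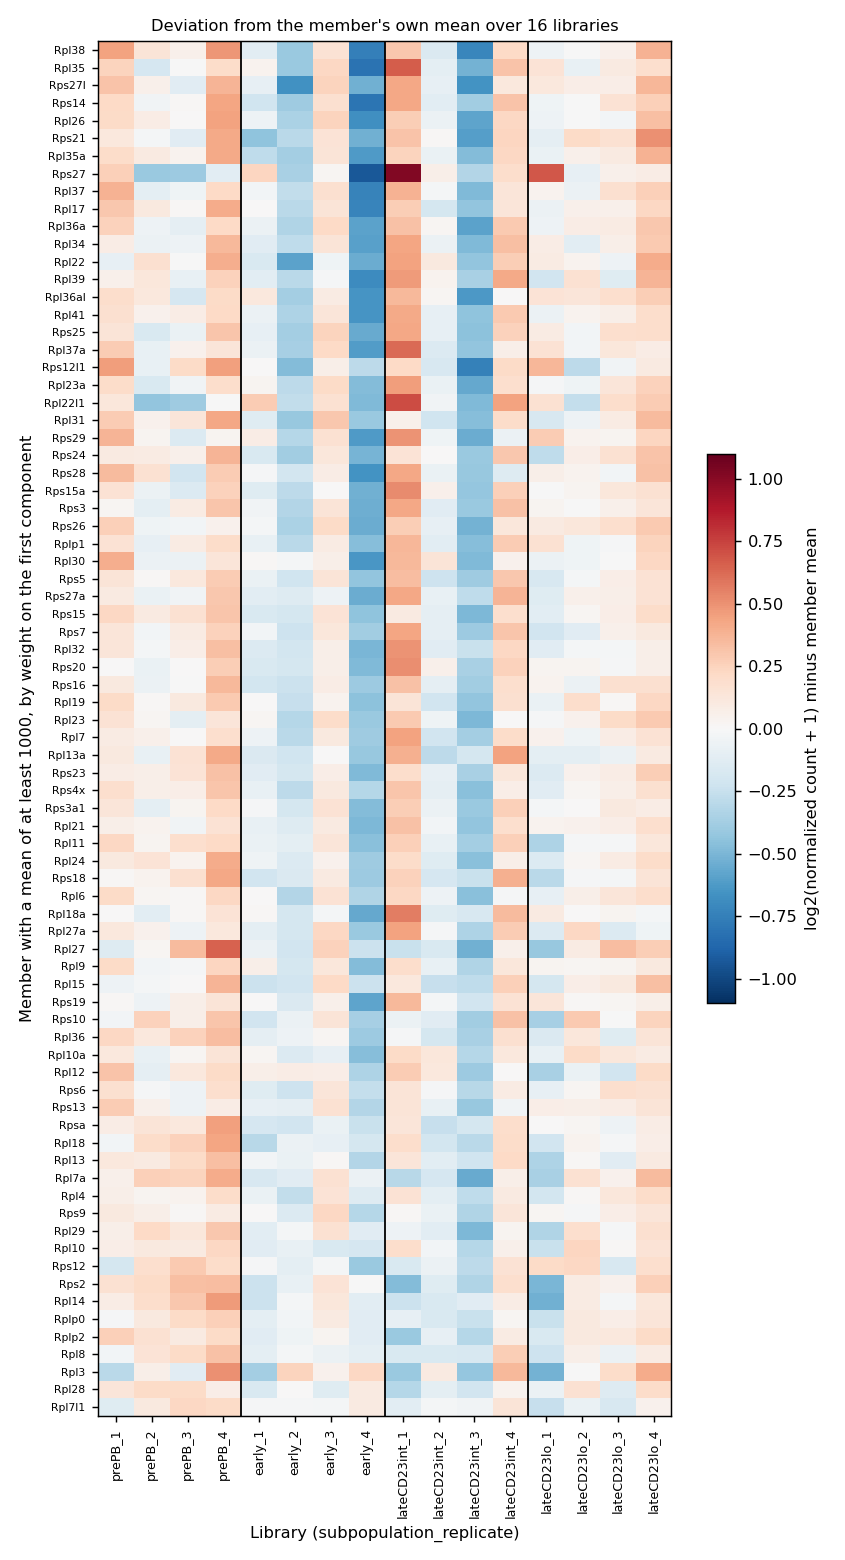
Deviation of log2(normalized count + 1) from the gene's own mean over the 16 libraries (color scale, red above and blue below the mean) for 78 of the 81 members with a mean of at least 1000, with libraries in columns by subpopulation and genes in rows by their weight on the first component. Nearly whole columns share a color, blue in cMyc+early 4 and cMyc+lateCD23int 3 and red in cMyc+prePB 4 and cMyc+lateCD23lo 4, while Rps27 near the top and genes such as Rpl3 and Rpl7l1 at the bottom depart from them.

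To ask which members differed between subpopulations, all genes whose normalized counts averaged 10 or more were fitted together with limma on log2(normalized count + 1). By the F test over the 4 subpopulations, 0 of 87 members passed an adjusted p of 0.05, where 0.408% of all genes did, and 1 member had an unadjusted p under 0.05, compared with 10.2% of all genes. By this limma F test that member was Rpl7a (unadjusted p = 0.0475, adjusted p = 0.487), and the count ran from 0 to 5 with 1 library left out. Rpsa and Rplp2 followed (adjusted p = 0.522 for Rpsa).

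The clearest contrast was that of cMyc+prePB with cMyc+early. The log2 fold change was above 0 for 84 of 87 members (51.2% of all genes tested), with a median of 0.29 and quartiles of 0.21 and 0.36, against 0.01 for all genes, that is a median fold of 1.22. No member passed the test: limma called 0 members (0.192% of all genes), edgeR and DESeq2 called 0 as well, and the smallest adjusted p was 0.384, which does not show that the groups were alike. At an unadjusted p under 0.05, limma had 16 members higher in cMyc+prePB (18.4%, against 3.81% of all genes) and 0 lower (4.77% of all genes). Members of both subunits had like values, with medians of 0.29 for large- and 0.28 for small-subunit genes, and members sharing under 1 in 3 of their 50-base stretches with other genes had a median of 0.32. The median was 0.32 for the 33 members with transcripts under 600 bases and 0.26 for the 24 of 900 bases or more, where short non-members had 0.10.

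Because members share their libraries, these counts are not counts of independent genes, and 1 library could move them. The 16 members at an unadjusted p under 0.05 became 1 without cMyc+prePB 4, 6 without cMyc+early 2, 2 without cMyc+early 4, 33 without cMyc+early 3 and 25 without cMyc+lateCD23int 3. The median log2 fold change was 0.19 without cMyc+early 4 and 0.37 without cMyc+early 3. The count was 5 without the mean-variance trend, 43 after rescaling to the same total and 35 after quantile normalization. In none of these settings did a member pass an adjusted p of 0.05. Other marker lists moved with these groups. The 6 T cell markers, of which 2 were tested, summed to 4528 to 6943 in cMyc+prePB and 2163 to 3855 in cMyc+early, nearly all of it Lck (mean 5653 and 3133, adjusted p = 0.0989), with Cd3d, Cd3e, Cd3g, Cd4 and Cd8a near 0. The 4 plasma cell markers summed to 36387 to 110788 and 22716 to 29244, mostly from Jchain, with Sdc1 at most 108 and Prdm1 at most 119 in these groups. The 2 plasmacytoid dendritic cell markers summed to 566 to 1005 and 289 to 478, with Siglech at most 2.48 and the rest from Bst2. The sums of the other cell type lists overlapped. These were the B cell (80224 to 135936 and 103825 to 173830), GC B cell (19497 to 29059 and 25133 to 32952) and erythroid markers (165 to 3131 and 473 to 2428). The myeloid (0.827 to 487 and 2.89 to 153) and NK cell markers (0 to 0.827 and 0 to 44.3) overlapped as well. Of the B cell markers 1 of 5, and of the GC B cell markers 1 of 5, had a log2 fold change above 0. The part of these transcripts in the members' values was not tested.

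In 9 of 87 members (10.3%, against 2.06% of all genes) every cMyc+prePB library lay above every cMyc+early library, among them Rpl10, Rpl13, Rpl18, Rpl36, Rpl6l, Rplp2, Rps2 and Rpsa. None lay below in this way (2.18% of all genes). Rpsa (chr9:120127689-120132369), a small-subunit protein near the mRNA exit that is also known as the laminin receptor, had 12363, 12843, 12609 and 15952 normalized counts in cMyc+prePB and 10266, 10040, 11088 and 9815 in cMyc+early. It had 12788, 9789, 10179 and 13292 in cMyc+lateCD23int and 11681, 11804, 11187 and 12334 in cMyc+lateCD23lo. The lowest cMyc+prePB library thus lay above all cMyc+early and all cMyc+lateCD23lo libraries but within the range of cMyc+lateCD23int. For cMyc+prePB against cMyc+early its log2 fold change was 0.38 (SE 0.13, adjusted p = 0.384), the smallest adjusted p of any member in this contrast. Rpl10, Rpl13, Rpl18, Rpl36 and Rps2 were named after their values were seen.

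The stalk proteins recruit elongation factors to the large subunit, and 1 of the 3 separated cMyc+prePB from cMyc+early in every library. Rplp2 (chr7:141447370-141451585) had 6397, 6005, 5727 and 6180 normalized counts in cMyc+prePB, 4897, 5170, 5462 and 4897 in cMyc+early, 4023, 5009, 4294 and 5698 in cMyc+lateCD23int, and 4751, 5753, 5795 and 6196 in cMyc+lateCD23lo. Every cMyc+prePB library exceeded every cMyc+early and cMyc+lateCD23int library, with log2 fold changes of 0.25 (adjusted p = 0.640) and 0.37 (adjusted p = 0.428). Rplp0 (chr5:115559467-115563727), the base of the stalk, had 53840 to 65184 in cMyc+prePB, 50025 to 58270 in cMyc+early, 46000 to 55300 in cMyc+lateCD23int and 46009 to 59876 in cMyc+lateCD23lo, so its groups overlapped in part (0.18 for cMyc+prePB against cMyc+early, adjusted p = 0.733). Rplp1, the partner of Rplp2, overlapped as well, with 8514 to 10429 in cMyc+prePB and 6556 to 9646 in cMyc+early (0.28, adjusted p = 0.703).

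**Figure D4:**
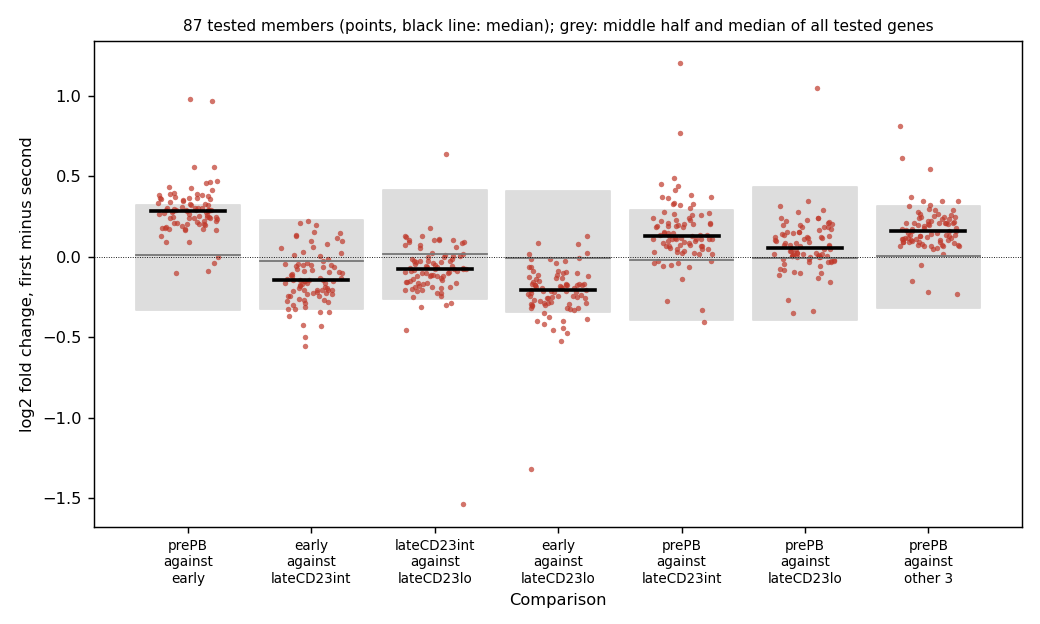
Log2 fold change of each of the 87 tested ribosomal protein genes in the comparisons between subpopulations, 1 point per gene, with a black line at the median of the members and a grey box and line for the quartiles and median of all genes tested. For cMyc+prePB against cMyc+early 84 of 87 points lie above 0 (median 0.29, all genes 0.01), and for cMyc+early against cMyc+lateCD23lo 5 of 87 do (median −0.21, all genes −0.01).

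Rpl5 and Rpl11, which with 5S RNA form the particle that binds MDM2 when ribosome assembly fails, differed in level and spread. Rpl5 (chr5:107900502-107909005) had 1240, 604, 651 and 834 normalized counts in cMyc+prePB and 498, 940, 473 and 669 in cMyc+early, followed by 605, 1215, 570 and 811 in cMyc+lateCD23int and 755, 964, 855 and 1017 in cMyc+lateCD23lo. Its highest values were in cMyc+prePB 1 and cMyc+lateCD23int 2, and the groups overlapped (cMyc+prePB against cMyc+early 0.36, SE 0.29, adjusted p = 0.801). Rpl11 had 7976 to 9101 in cMyc+prePB and 5680 to 8559 in cMyc+early (0.29, SE 0.16, adjusted p = 0.662). Of the 14 genes listed for Diamond-Blackfan anaemia, an inherited failure of red cell production, all 14 had a log2 fold change above 0 here (96.6% of all members, 51.2% of all genes), with 0 called (0.192% of all genes) and a median of 0.29, the same as that of all members. Without cMyc+prePB 1 Rpl5 was at 0.15, and Rpl11 was at 0.18 without cMyc+early 4.

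Small-subunit proteins with known roles in signaling or fusion had the same sign. Rps6, which S6 kinase phosphorylates downstream of mTORC1, had 16974 to 20086 in cMyc+prePB and 14672 to 19284 in cMyc+early (0.20, SE 0.13, adjusted p = 0.745). Rps27a, made as a fusion with ubiquitin, had 13477 to 17370 and 9699 to 13608 (0.29, adjusted p = 0.672). Rps4x, which is X-linked, had 17064 to 20176 and 13127 to 17588 (0.30, adjusted p = 0.616), and Rps19 had 28390 to 32553 and 19655 to 30667 (0.21, adjusted p = 0.754). Without cMyc+early 4, Rps19 was at 0.076 and Rps27a at 0.18. In each of these genes at least 1 cMyc+early library lay within the cMyc+prePB range. Rpl38 had the values 6797, 5527, 5201 and 7006 in cMyc+prePB and 4618, 3771, 5615 and 2969 in cMyc+early (0.56, SE 0.22, adjusted p = 0.485).

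The 3 largest log2 fold changes for cMyc+prePB against cMyc+early were those of genes at low levels, and that of the abundant Rpl38 was close to the last of them. Rpl39l had a value of 0.98 from counts of 16.1, 10.8, 0 and 33.4 against 30.4, 0, 0 and 13.5, which overlap. Rps4l, a pseudogene of Rps4x on chromosome 6, had 0.97 from counts of 167, 160, 124 and 187 against 76.5, 63.7, 59.7 and 141. Rpl6l, a pseudogene of Rpl6, had 0.56 from 117, 129, 124 and 127 against 116, 60.2, 85.7 and 83.1, so all 4 cMyc+prePB libraries lay above all cMyc+early libraries. The 3 members below 0 were Rpl22l1 (−0.10), Rps3a3 (−0.09) and Rps3a2 (−0.04).

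From cMyc+early to the late subpopulations the members' values lay the other way. For cMyc+early against cMyc+lateCD23lo the log2 fold change was above 0 in 5 of 87 members (49.6% of all genes), with a median of −0.21 (quartiles −0.29 and −0.13), against −0.01 for all genes and −0.27 for short non-members. Limma called 0 members (0.280% of all genes; edgeR and DESeq2 called 0), and 3 had an unadjusted p under 0.05 as lower in cMyc+early (3.45%, against 5.12% of all genes) and 0 as higher (5.20% of all). These 3 became 18 without cMyc+early 3, 8 without cMyc+lateCD23int 3, 1 without cMyc+early 2 or cMyc+lateCD23lo 2 or 3, and 0 without cMyc+early 4 or cMyc+lateCD23lo 4. The median was −0.13 without cMyc+early 4 and −0.12 after quantile normalization. The plasma cell markers summed to 22716 to 29244 in cMyc+early and 55349 to 89659 in cMyc+lateCD23lo, where Jchain passed the test (mean 23623 and 64836, adjusted p = 0.0394), with Sdc1 at most 45.1 and Prdm1 at most 133 in these groups. The GC B cell markers (25133 to 32952 and 34116 to 40027) and the T cell markers, nearly all Lck (2163 to 3855 and 4002 to 5801), did not overlap either, and the part of these transcripts in the members' values was not tested. Every cMyc+early library lay below every cMyc+lateCD23lo library in 2 members (2.30%, against 3.37% of all genes), Rpsa and Rpl36al, and above in 0 (2.86% of all genes). Rpl36al, a paralog of the large-subunit gene Rpl36a, had 6530, 4663, 6439 and 3853 in cMyc+early and 6691, 6633, 6853 and 7306 in cMyc+lateCD23lo (−0.39, SE 0.20, adjusted p = 0.506). The largest values were those of Rpl39l (−1.32), Rpl5 (−0.52) and Rps21 (−0.47), and on the other side Rpl7l1 (0.13), Rps4l (0.08) and Rpl12 (0.08).

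The steps through cMyc+lateCD23int were smaller and rested on single libraries. For cMyc+early against cMyc+lateCD23int the median was −0.15 (all genes −0.03), with 17 of 87 members above 0 (47.0% of all genes), 0 called (0.008% of all genes) and, at an unadjusted p under 0.05, 2 lower (2.26% of all) and 0 higher (1.45% of all). These 2 became 26 without cMyc+lateCD23int 3, 10 without cMyc+early 3 and 4 without cMyc+early 1. They became 0 without cMyc+prePB 2, cMyc+early 2 or 4, or cMyc+lateCD23int 1 or 4, and 1 without cMyc+prePB 1, 3 or 4 or cMyc+lateCD23lo 2 or 3. The T cell markers (2163 to 3855 in cMyc+early and 4726 to 6526 in cMyc+lateCD23int) and the plasma cell markers (22716 to 29244 and 30564 to 58707) separated these groups, and their part in the members' values was not tested. No member separated these groups (1.11% of all genes above, 1.37% below). It was −0.04 without cMyc+early 4, −0.24 without cMyc+early 3, and −0.05, −0.28 and −0.09 without cMyc+lateCD23int 1, 3 and 4. The largest values were Rps4l (−0.55), Rps27 (−0.50) and Rpl22 (−0.43), and Rpl39l (0.22), Rpl6l (0.21) and Rpl7a (0.20), of which Rps27 was at −0.24 without cMyc+lateCD23int 1 and −0.27 without cMyc+early 4. For cMyc+lateCD23int against cMyc+lateCD23lo the median was −0.08 (all genes 0.02), with 22 of 87 above 0 (51.2% of all genes), 0 called (0.008% of all genes) and, at an unadjusted p under 0.05, 0 higher (3.77% of all) and 0 lower (2.51% of all). This 0 became 5 without cMyc+lateCD23lo 1, 3 without cMyc+lateCD23int 4 and 1 without cMyc+early 3. No member separated these groups either (1.91% of all genes above, 1.86% below). It turned to 0.05 without cMyc+lateCD23int 3, was −0.15 and −0.14 without cMyc+lateCD23int 1 and 4, −0.13 and −0.03 without cMyc+lateCD23lo 1 and 4, and −0.03 and −0.01 after rescaling to the same total and quantile normalization. Among the extremes were Rps4l (0.64), Rps3a3 (0.18) and Rpl13a (0.13), and Rpl39l (−1.54) and Rpl6l (−0.45). DESeq2 and edgeR called 0 members in both steps.

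The comparisons of cMyc+prePB with the other subpopulations share the cMyc+prePB libraries with the contrast above. Against cMyc+lateCD23int the median was 0.13 (all genes −0.02), 76 of 87 members were above 0 (48.2% of all genes), 0 were called (0.144% of all genes) and 8 were higher at an unadjusted p under 0.05 (9.20%, against 3.41% of all) and 0 lower (5.36% of all). These 8 became 14 without cMyc+lateCD23int 4, 4 without cMyc+lateCD23int 2, 5 without cMyc+prePB 3 and 3 without cMyc+prePB 4. The plasmacytoid dendritic cell markers, nearly all Bst2, separated these groups (566 to 1005 and 385 to 550), and their part was not tested. The median was 0.09 without cMyc+prePB 4, 0.22 without cMyc+lateCD23int 1 and 0.01 without cMyc+lateCD23int 3. Rpl7a (chr2:26910764-26913318) had 11802, 13621, 13421 and 15039 in cMyc+prePB, 10038, 10407, 12764 and 10840 in cMyc+early, 9178, 9977, 7741 and 11858 in cMyc+lateCD23int, and 8884, 12761, 11746 and 14481 in cMyc+lateCD23lo. Its lowest values were in cMyc+lateCD23int, where 1 of 4 libraries reached the cMyc+prePB range, and its log2 fold change for cMyc+prePB against cMyc+lateCD23int was 0.49 (SE 0.16, adjusted p = 0.349). In 5 members (5.75%, against 2.46% of all genes) every cMyc+prePB library lay above every cMyc+lateCD23int library, among them Rpl28, Rpl29, Rpl6l and Rplp2, of which Rpl28 and Rpl29 were named after their values were seen, and none lay below (2.75% of all genes). Other extremes were Rpl39l (1.20) and Rpl6l (0.77), and Rps27 (−0.40), Rpl22l1 (−0.33) and Rps3a3 (−0.27). Without cMyc+lateCD23int 1, Rps27 was at −0.14 and Rpl22l1 at −0.15, and Rpl39l ran from 0.54 to 2.26 with 1 library left out.

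Against cMyc+lateCD23lo the members stood nearest to the rest of the genes, with a median of 0.06 (all genes −0.01), 63 of 87 above 0 (49.5% of all genes), 0 called (0.264% of all genes) and 1 at an unadjusted p under 0.05 as higher (6.07% of all genes) with 0 lower (6.63% of all). That 1 became 4 without cMyc+lateCD23lo 4, 3 without cMyc+prePB 1, 2 without cMyc+lateCD23int 3 or cMyc+lateCD23lo 2, and 0 without cMyc+prePB 3 or 4 or cMyc+lateCD23lo 1. The GC B cell markers did not overlap (19497 to 29059 in cMyc+prePB and 34116 to 40027 in cMyc+lateCD23lo), with 0 of 5 above 0, a median of −0.68 and a smallest adjusted p of 0.0843, and their part in the members' values was not tested. The median was 0.01 without cMyc+prePB 4, 0.09 without cMyc+prePB 2 or 3, 0.02 and 0.12 without cMyc+lateCD23lo 1 and 4, 0.14 after rescaling to the same total and 0.13 after quantile normalization. Rpsa was the 1 member with every cMyc+prePB library above (3.01% of all genes), and none lay below (3.55% of all). The extremes were Rps4l (1.05), Rpl14 (0.35) and Rpl6l (0.32), and Rps27 (−0.35), Rpl39l (−0.34) and Rpl22l1 (−0.27). Against the mean of the other 3 subpopulations the median was 0.16 (all genes 0.00), 83 of 87 members were above 0 (50.3% of all genes), 0 were called (0.312% of all genes) and 8 were higher at an unadjusted p under 0.05 (9.20%, against 4.47% of all) and 0 lower (6.67% of all). These 8 became 0 without cMyc+prePB 4, 15 without cMyc+early 3, 13 without cMyc+lateCD23int 1 or 4 and 14 without cMyc+lateCD23lo 4. In 0 members did all cMyc+prePB libraries lie above all 12 others (0.328% of all genes). Here Rps4l (0.81), Rpl39l (0.61) and Rpl6l (0.55) had the highest and Rpl22l1 (−0.23), Rps27 (−0.22) and Rps3a3 (−0.15) the lowest values, and the smallest adjusted p of a member was 0.288. DESeq2 and edgeR called 0 members in these comparisons.

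Paralogs were compared with their canonical partner as a log2 ratio of normalized counts + 1 within each library. This ratio hardly depends on library scaling, except where a count is near 0, as for Rpl39l. Rpl22l1, the paralog of the RNA-binding large-subunit protein Rpl22, was above Rpl22 in every library: the ratio was 1.06, 0.23, 0.46 and 0.44 in cMyc+prePB, 1.29, 1.16, 1.06 and 0.90 in cMyc+early, 1.12, 0.70, 0.79 and 1.02 in cMyc+lateCD23int, and 0.92, 0.54, 1.10 and 0.72 in cMyc+lateCD23lo. It was lowest in cMyc+prePB libraries 2 to 4. The means were 0.55 ± 0.36 in cMyc+prePB and 1.10 ± 0.16 in cMyc+early (SD, n = 4), a difference of −0.56 (exact permutation test, two-sided, p = 0.0571, adjusted p = 0.545 over 36 tests). Rpl22 itself (chr4:152325742-152334071) had 2315, 2780, 2449 and 3244 in cMyc+prePB and 2190, 1633, 2380 and 1681 in cMyc+early (0.46, SE 0.20, limma adjusted p = 0.554). Rpl22l1 (chr3:28805436-28807424) had 4816, 3255, 3368 and 4394 against 5366, 3648, 4962 and 3145 (−0.10, SE 0.24, limma adjusted p = 0.962), and this value was 0.02 without cMyc+early 1.

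Rps27l, a p53 target gene and the paralog of Rps27 (chr3:90212522-90213651), was below Rps27 in every library. Of the 50-base stretches of Rps27, 98.6% also occur in transcripts of other genes, against 22.4% for Rps27l. The Rps27 counts, and so this ratio, therefore rest on how reads were shared between near-identical genes, which was not tested. The log2 ratio was −1.71, −1.30, −1.49 and −1.28 in cMyc+prePB, −2.09, −2.07, −1.54 and −1.36 in cMyc+early, −2.36, −1.92, −2.10 and −1.84 in cMyc+lateCD23int, and −2.34, −1.61, −1.74 and −1.48 in cMyc+lateCD23lo. All cMyc+prePB libraries lay above all cMyc+lateCD23int libraries, and the ratio was lowest in library 1 of every subpopulation. The means of −1.45 ± 0.20 and −2.06 ± 0.23 (SD, n = 4) differed by 0.61, with the smallest p that 4 libraries against 4 allow (exact permutation test, two-sided, p = 0.0286, adjusted p = 0.545). Over the 36 tests of 6 pairs, 0 passed an adjusted p of 0.05 and 1 an unadjusted p under 0.05. With this smallest possible p, a few differing ratios could not pass the adjustment over 36 tests. The 0 therefore does not show that the ratios were alike.

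**Figure D5:**
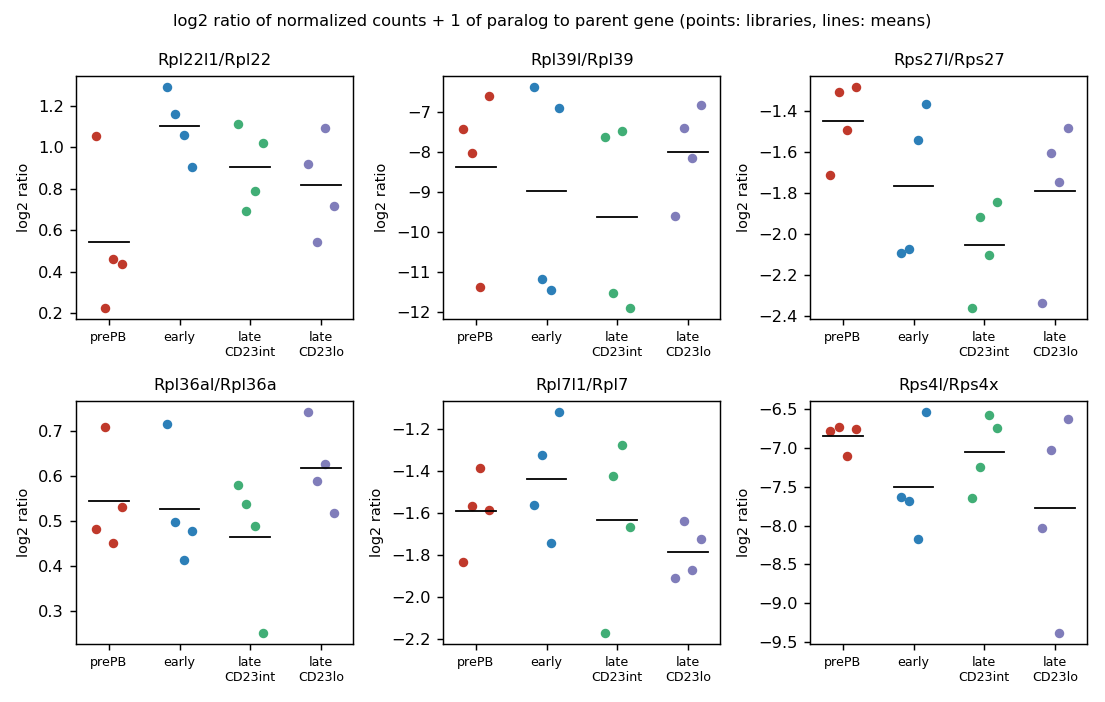
Log2 ratio of each paralog to its canonical gene in every library, 1 point per library with a line at the mean of each subpopulation, for the 6 pairs tested, each on its own axis. Rpl22l1 lies above Rpl22 (means 0.55 in cMyc+prePB and 1.10 in cMyc+early) and Rps27l below Rps27 (means −1.45 in cMyc+prePB and −2.06 in cMyc+lateCD23int), while Rps4l and Rpl39l lie far below their partners.

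No difference in the remaining pairs passed the exact permutation test at an unadjusted p of 0.05. The mean log2 ratio of Rpl36al to Rpl36a was 0.54, 0.53, 0.46 and 0.62 in cMyc+prePB, cMyc+early, cMyc+lateCD23int and cMyc+lateCD23lo. That of Rpl7l1, whose protein resembles Rpl7 and acts in ribosome assembly, to Rpl7 was −1.59, −1.44, −1.63 and −1.79. Rpl7l1 counts were steady, with 6322 to 8110 in cMyc+prePB, 6817 to 7409 in cMyc+early, 6378 to 7652 in cMyc+lateCD23int and 5806 to 7148 in cMyc+lateCD23lo. Rps4l lay at −6.84, −7.51, −7.05 and −7.77 relative to Rps4x, and Rpl39l at −8.36, −8.98, −9.62 and −7.99 relative to Rpl39, both from few reads, with SDs of up to 1.23 and 2.71 within a subpopulation.

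Genes that work beside the ribosomal proteins were counted from lists, for cMyc+prePB against cMyc+early, where 51.2% of all genes were above 0, 0.192% were called and the median of all genes was 0.01. Fau and Rack1, whose products are ribosomal constituents outside the naming rule, had log2 fold changes of 0.18 (adjusted p = 0.836) and 0.24 (adjusted p = 0.635) for cMyc+prePB against cMyc+early. The 19 other TOP mRNA genes, which encode elongation and initiation factors and the like, had a median of 0.15 with 14 of 19 above 0 and 0 called. The 10 genes listed as escorts, which hold both escorts and assembly factors of ribosomal proteins, had a median of 0.08 with 7 above 0 and 0 called. The 11 growth-control genes, among them Mtor and Larp1, had a median of 0.11 with 6 above 0 and 0 called. Myc itself had means of 3823, 2503, 2079 and 1427 in cMyc+prePB, cMyc+early, cMyc+lateCD23int and cMyc+lateCD23lo (0.71 for cMyc+prePB against cMyc+early, adjusted p = 0.652). None of the lists of TOP mRNA, escort and growth-control genes had a called gene in any of the 7 contrasts by limma.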

How the data were processed

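RNA of sorted cells was made into libraries with a low-input kit and sequenced by the authors on a HiSeq 4000. Per the submitters' processing notes, Trimmomatic 0.36, STAR 2.5.2a, RSEM 1.2.31, DESeq2 1.20.0 and R 3.5.1 were used with GRCm38. The deposited values are a normalized signal, gene counts that the authors divided by a size factor per library; 100% of values came out whole (within 0.01 of a read) once rescaled, which gave the depths and the reads for edgeR and DESeq2. RSEM shares reads between near-identical genes by estimate, so values of members with pseudogene copies are uncertain.

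Genes with a mean of at least 10 were tested with limma 3.58.1 (R 4.3.3) on log2(normalized count + 1), with trended variance, all 16 libraries in 1 fit and Benjamini-Hochberg adjustment over 12505 genes. Adjusted p-values outside the paralog ratios are limma's. On this scale the fold change of a low gene can come out too small, or too large where some libraries had a count of 0. For Rpl39l, cMyc+prePB against cMyc+lateCD23lo was −0.34 with limma, 0.021 with edgeR and 0.014 with DESeq2. Ratios of paralogs were compared by exact permutation. Levels per kb used the shortest principal transcript. Shared 50-base stretches were counted against all annotated transcripts. The fits were tested on simulated counts in which genes varied independently, so their behavior on genes that move together, as the members do, was not tested. Alternatives were edgeR 4.0.16, DESeq2 1.42.0, other pseudocounts, filters and scalings, a replicate block and leaving out each library. Intervals were not given, and floors cover counting error only.

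The members and lists were chosen with earlier results of these data known. Named were, by rule, the up to 3 members per direction with the largest change in each contrast, the 8 highest and 5 lowest per kb, the members not tested, the paralog pairs and 10 fixed genes. A few genes are not reported here by name.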

Additional observations from a re-analysis of the deposited data

Results flagged for a closer look

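Of 148 sets of 4 libraries tested for a value far from the other 3, 6 were picked out, and chance alone picks out about 1 in 20. In cMyc+prePB, library 4 had a ribosomal protein share of 6.12% where the others had 5.16 to 5.22%, a Rpsa count of 15952 where the others had 12363 to 12843, and a Rpl4 count of 71690 where the others had 64001 to 65181. In cMyc+prePB library 3, the log2 ratio of Rps4l to Rps4x was −7.11, below the −6.79 to −6.72 of the others. Rpl7l1 was at 7409 in cMyc+early library 4 (others 6817 to 6875). Rps27l was at 8444 in cMyc+lateCD23lo library 4 (others 6885 to 7089).

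Rows named as ribosomal protein pseudogenes with a -ps suffix, which lie outside the members, held 0.330 to 0.499% of normalized counts in every library, and 145 of 276 such rows had more than 3 reads in at least 1 library. Their mean share was highest in the cMyc+prePB libraries (0.475%) and lowest in the cMyc+early libraries (0.382%), as was that of the members, with 0.401 and 0.419% for cMyc+lateCD23int and cMyc+lateCD23lo. Whether these reads came from the pseudogenes or from the near-identical mRNAs was not tested.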

How the results depend on the processing

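In all alternatives run, 0 members passed an adjusted p of 0.05, in the F test or in any of the 7 contrasts, and the smallest adjusted p was 0.0944. The number of all genes called moved more, from 0 to 131 in place of 24 for cMyc+prePB against cMyc+early and from 25 to 274 in place of 51 for the F test, leaving out libraries aside. Without the 5 most abundant members the share of counts was 4.33% (cMyc+prePB), 3.51% (cMyc+early), 3.94% (cMyc+lateCD23int) and 3.91% (cMyc+lateCD23lo). The replicate numbers were not taken as pairs, since not every same-number pair correlated over 0.1. Over all genes tested 5 of 24 did (−0.129 to 0.174), but over genes averaging 1000 or more, which hold most members, 17 of 24 did (−0.592 to 0.701), and 10 of 16 libraries lay closest to one of their own number, so abundant genes varied in part with the number. With the replicate block the F test called 173 genes instead of 51, cMyc+prePB against cMyc+early 65 instead of 24, and no member. The permutation tests of the paralog ratios did not use the numbers. Paired by number, the smallest p that such a test allows is 0.125, so no ratio could pass 0.05 in that setting. Rescaling, quantile normalization and the filter left the median of all genes between −0.0762 and 0.0726 (log2).

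The median log2 fold change kept its sign in each contrast, except for cMyc+lateCD23int against cMyc+lateCD23lo, which ran from −0.15 to 0.051 over the leave-one-out fits. Single members with few reads or values near 0 changed sign, and the cause was not tested. For cMyc+early against cMyc+lateCD23lo, Rps4l was at −0.19 with edgeR, −0.061 with edgeR and the replicate block, −0.20 with DESeq2 and −0.036 without the 4 libraries numbered 1, a setting chosen after seeing the data, in which Rpl12 was at −0.037. Rpl39l was at −0.44 for cMyc+early against cMyc+lateCD23int with edgeR and the block, and at 0.021 with edgeR and 0.014 with DESeq2 for cMyc+prePB against cMyc+lateCD23lo. Leaving out 1 library at a time moved Rpl22l1 from −0.24 to 0.021 and Rps3a2 from −0.14 to 0.12 (cMyc+prePB against cMyc+early), Rps4l from −0.45 to 0.51 and Rpl12 from −0.0061 to 0.18 (cMyc+early against cMyc+lateCD23lo), and Rps3a3 from −0.018 to 0.37 (cMyc+lateCD23int against cMyc+lateCD23lo). Rpl39l moved from −0.70 to 0.997 (cMyc+early against cMyc+lateCD23int), from −0.98 to 0.72 (cMyc+prePB against cMyc+lateCD23lo) and from −0.024 to 1.68 (cMyc+prePB against the others). Of 52 fold changes of single members, 35 moved by over 1.5 times without 1 library. Depth limits Rpl39l, which had 3 or fewer reads in 6 libraries.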
